A study of Mus musculus with 9 samples.

Results

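The epidermal differentiation complex is a run of genes on mouse chromosome 3 that encode the proteins of the outermost skin layer, and genes of the S100 family lie at both of its ends. Its members were taken by position and name: genes on chromosome 3 whose symbol starts with Lce, Sprr or S100a, together with Flg, Flg2, Hrnr, Rptn, Crnn, Lor, Ivl, Tchhl1, Crct1, Prr9 and Smcp. The rule used no measured value and gave 63 of the 49585 genes in the tables, spread over 3054 kb (GRCm38, chr3:90511034-93564643). They are 14 S100a genes, 17 Sprr genes, 14 Lce1 genes, 7 Lce3 or Lce6 genes, 6 S100-fused genes (Flg, Flg2, Hrnr, Rptn, Crnn, Tchhl1) and 5 others. At least 1 read was counted for 60 of them, and 46 had enough reads to be tested. S100a2, S100a5 and Sprr2c-ps had no read in any library.

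As keratinocytes move up through the epidermis they make loricrin (Lor), involucrin (Ivl), small proline-rich proteins (Sprr) and late cornified envelope proteins (Lce), which transglutaminases cross-link under the membrane into the cornified envelope. The S100-fused proteins include filaggrin (Flg), which bundles keratin filaments, and its relatives filaggrin-2 and hornerin. S100 proteins are small calcium-binding proteins, of which S100a8 and S100a9 form calprotectin, made by neutrophils and by stressed keratinocytes.

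RNA of untreated mouse skin was sequenced in 9 libraries, 3 each from C57BL/6 mice (genotype wild type), BALB/c mice (wild type) and mice labelled IL-6 KO (genotype IL-6 -/-, strain C57BL/6). Mice came at 4 to 5 weeks of age, had 2 weeks to settle, were shaved on day 0 at 6 weeks of age, and gave skin on day 8. The protocol lists 3 C57BL/6, 3 BALB/c and 6 IL-6 KO mice, no label ties a library to a mouse, and p-values here measure the spread between libraries, which may be technical.

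The targeted gene did not follow its label: Il6 had 2, 1 and 0 reads in C57BL/6, 0, 2 and 0 in the BALB/c libraries, and 6, 24 and 1 where the label says IL-6 KO. Those libraries are therefore named by that label throughout, as the IL-6 KO-labelled libraries, and whether the reads fall in the deleted part was not tested. Reads of Xist, which silences an X chromosome, numbered 130 in BALB/c replicate 2 and 0 to 5 in each other library. Libraries held 3843953 to 6882193 exon reads, and all 3 labelled IL-6 KO were smaller than all 6 others. Members took 0.535% to 0.922% of exon reads in C57BL/6, 1.03% to 1.27% in BALB/c and 1.31% to 1.58% in the IL-6 KO-labelled libraries. Suprabasal keratinocyte markers (Krt1, Krt10, Krtdap, Sbsn, Dsg1a) were at 264 CPM (reads counted for a gene, scaled to library size) or more in all libraries. Krt2, of the same list, was at 0.895 to 75.8 CPM. The list summed to between 3587 CPM (IL-6 KO replicate 1) and 17076 CPM (IL-6 KO replicate 2). Skeletal muscle, adipocyte and fibroblast markers were present as well. Summed skeletal muscle markers ran from 5107 to 6018 CPM in the IL-6 KO-labelled libraries, against 18247 to 68446 in the others. In such whole-skin RNA, fewer cells of a type and less RNA per cell cannot be told apart.

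The promoters shown here belong to 8 members named in the comparisons and were picked by hand. All 8 hold a shared letter pattern near the start site, and not all members named do. They are given as the 100 bases before the annotated start, 5′ to 3′ on the gene's strand (RefSeq, GRCm38.p6), with capitals marking ATAAAA, the core of a TATA-type element, and TGANTCA, the AP-1-type motif.
Lce1d: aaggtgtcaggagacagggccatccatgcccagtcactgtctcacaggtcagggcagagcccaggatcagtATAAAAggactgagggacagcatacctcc
Lce1e: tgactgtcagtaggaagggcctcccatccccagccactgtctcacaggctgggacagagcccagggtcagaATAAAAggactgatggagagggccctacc
Lce1g: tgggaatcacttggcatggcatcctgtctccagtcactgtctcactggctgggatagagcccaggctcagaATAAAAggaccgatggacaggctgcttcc
Lor: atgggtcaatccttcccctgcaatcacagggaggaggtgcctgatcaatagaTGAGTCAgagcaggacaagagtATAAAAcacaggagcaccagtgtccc
Prr9: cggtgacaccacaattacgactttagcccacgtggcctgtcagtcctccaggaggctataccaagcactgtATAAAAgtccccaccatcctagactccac
Crnn: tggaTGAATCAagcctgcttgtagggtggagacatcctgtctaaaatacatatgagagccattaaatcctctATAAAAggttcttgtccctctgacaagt
Tchhl1: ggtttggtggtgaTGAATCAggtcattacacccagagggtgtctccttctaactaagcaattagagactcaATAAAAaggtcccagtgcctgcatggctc
Sprr1b: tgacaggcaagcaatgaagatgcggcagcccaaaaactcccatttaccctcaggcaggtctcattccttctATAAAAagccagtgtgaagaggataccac

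These windows lie at chr3:92687211-92687310 (Lce1d, minus strand), chr3:92709075-92709174 (Lce1e, minus), chr3:92752339-92752438 (Lce1g, minus), chr3:92083143-92083242 (Lor, minus), chr3:92123948-92124047 (Prr9, minus), chr3:93144689-93144788 (Crnn, plus), chr3:93468654-93468753 (Tchhl1, plus) and chr3:92438780-92438879 (Sprr1b, minus). In all 8 the ATAAAA starts 26 to 29 bases before the start site. Lce1d, Lce1e and Lce1g matched each other at 70 to 78 of 100 positions, whereas every other pair among these 8 matched at 20 to 41.

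RefSeq windows from 250 bases before to 50 after the start were found for 55 members, 59 windows in all, and not for S100a14, S100a2, Sprr2c-ps, Sprr2g, Sprr2j-ps, Lce1f, Crct1 and S100a10. ATAAAA on the gene's strand, placed 40 to 20 bases before the start, occurred in 28 of the 59 windows (47.5%) and in 508 of all 32851 windows of that length (1.55%). It was in 12 of 13 Lce1, 5 of 14 Sprr and 1 of 15 S100a windows. TGANTCA, which reads the same on both strands and can share only an end A with the first motif, occurred anywhere in 19 of the 59 windows (32.2%), against 2565 of 32851 (7.81%). It was in 9 of 14 Sprr windows and 5 of 6 S100-fused windows, and in 0 of 13 Lce1 and 0 of 7 Lce3 or Lce6 windows. A match describes letters in the window and no more.

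Levels differed over several orders of magnitude among members of the complex. On the scale of CPM per kb of exon, Lor was highest in C57BL/6 (1595 ± 423, SD, n = 3) and in BALB/c (2102 ± 205), each time followed by Lce1m (1126 ± 229 and 1434 ± 235), whose level did not separate from that of Lor beyond their spread in C57BL/6. In the IL-6 KO-labelled libraries the highest member was Prr9 (2136 ± 1336 CPM per kb), a proline-rich protein gene, followed by Sprr1a (1275 ± 472) and Lor (758 ± 588), and these 3 did not separate beyond their spread. Only 6.39% of Prr9 reads there were counted as unique, against 100% for Sprr1a and Lor, so the first place of Prr9 is uncertain. The remaining levels are given as CPM per gene, without division by length, and serve to compare libraries.

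**Figure D1:**
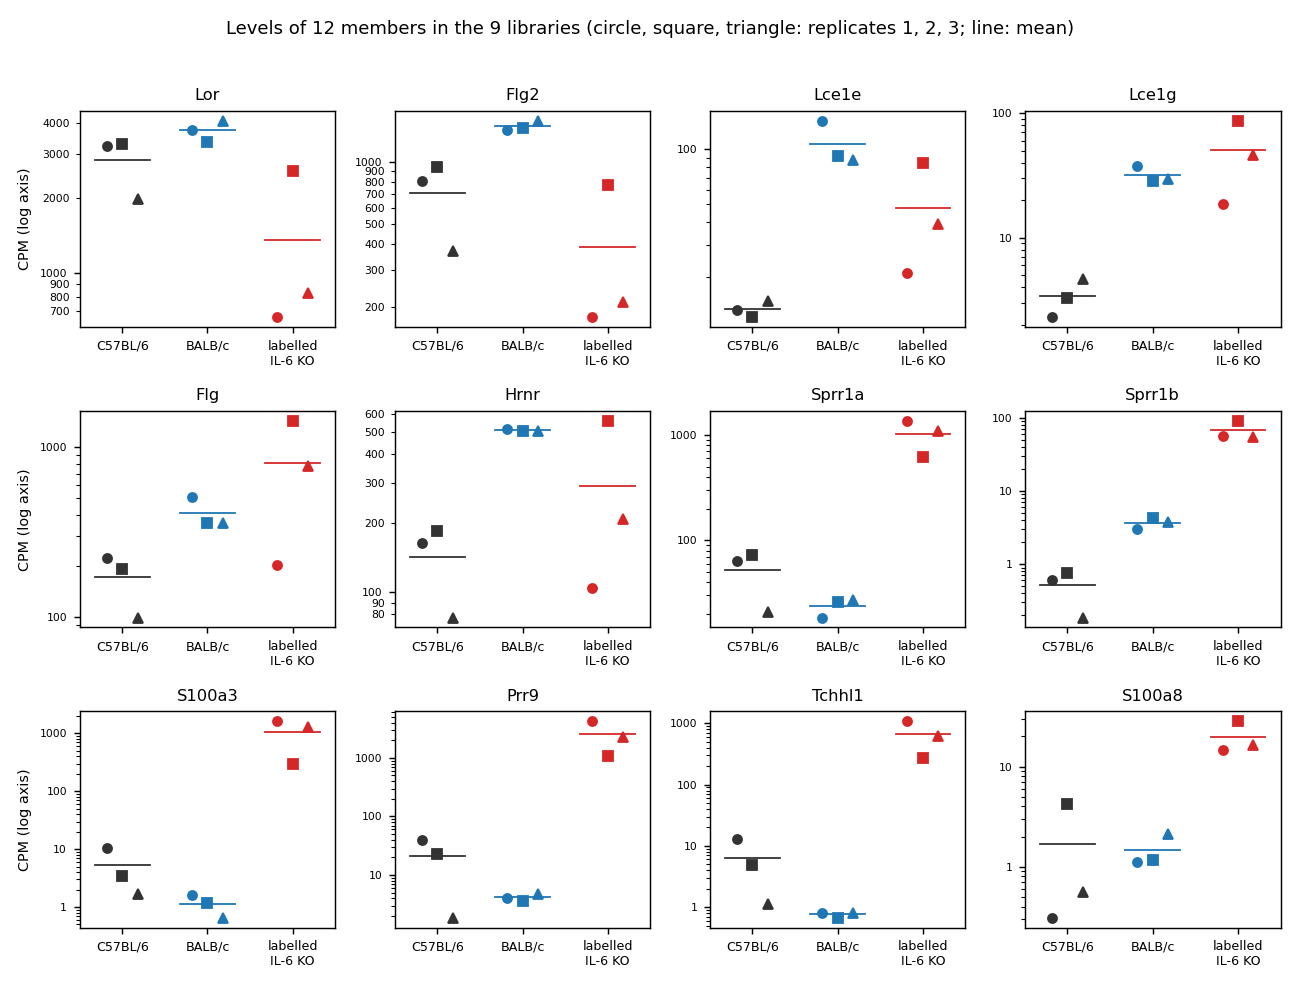
Level of 12 members in each library, in CPM on a log axis whose range differs by panel, with circles, squares and triangles for replicates 1, 2 and 3 and a line at the group mean. Lce1e and Lce1g lie higher in all BALB/c libraries than in all C57BL/6 libraries, Sprr1b and S100a3 lie highest in all IL-6 KO-labelled libraries, and Lor and Flg2 are spread widely among those libraries.

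The first comparison was between the wild-type strains. In BALB/c skin 5 of 46 tested members were higher than in C57BL/6 and 0 were lower by edgeR's quasi-likelihood test (adjusted p under 0.05), where 1.63% of all 14415 tested genes were called higher and 1.78% lower. At an unadjusted p under 0.05, 19 members were higher and 6 lower, and DESeq2 called 12 higher and 2 lower (Sprr2a2 and Tchhl1). The median log2 fold change was 0.66 over the tested members and -0.01 over all tested genes. The called members were the late cornified envelope genes Lce1e, Lce1g, Lce1d and Lce6a, and Sprr1b.

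Lce1e was measured at 13.2, 12.1 and 14.9 CPM in C57BL/6 and at 144, 91.8 and 87.1 CPM in BALB/c. The groups lay far apart, with little spread in C57BL/6. Its log2 fold change was 3.01 ± 0.445 (SE, adjusted p = 0.00757). Lce1g was at 2.31, 3.28 and 4.64 CPM in C57BL/6 and at 37.6, 28.4 and 29.8 CPM in BALB/c, again without overlap, a log2 fold change of 3.24 ± 0.527 (adjusted p = 0.0118). Lce1d was at 54.4, 57.7 and 62.4 CPM against 283, 189 and 212 CPM, a log2 fold change of 1.97 ± 0.409 (adjusted p = 0.0352). Lce6a, a late cornified envelope gene just outside the Lce1 cluster, was at 12.3, 13.0 and 10.96 CPM against 82.6, 47.1 and 51.4 CPM, a log2 fold change of 2.32 ± 0.46 (adjusted p = 0.0294). For all 4, the groups did not overlap and BALB/c replicate 1 was the highest library of its group.

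Around these calls, 13 of 14 Lce1 genes had a positive fold change, with a median of 1.55 on the log2 scale, and 12 of 14 had every BALB/c library above every C57BL/6 library. Over all 46 members, 21 were higher and 3 lower without overlap, and over all tested genes 14.6% and 15.6%. The exceptions in the Lce1 cluster were Lce1m, at 858 to 1293 CPM in C57BL/6 and 1132 to 1577 CPM in BALB/c, and Lce1a2, at 199 to 238 CPM and 147 to 226 CPM. Lce1a2 has a neighbour of nearly the same name, Lce1a1, at 172 to 188 CPM in C57BL/6 and 482 to 732 CPM in BALB/c. The ratio of Lce1a1 reads to Lce1a2 reads was 0.821 ± 0.04 (SD, n = 3) in C57BL/6, 1.09 ± 0.131 in the IL-6 KO-labelled libraries and 3.23 ± 0.0576 in BALB/c. Their summed level was 395 ± 28.4, 383 ± 301 and 764 ± 172 CPM in the same order. Of their reads, 99.3% (Lce1a1) and 99.6% (Lce1a2) were counted as unique, with 98.99% and 98.95% in BALB/c and 99.94% and 99.98% in C57BL/6. Reads of all groups were mapped to GRCm38. Whether sequence differences between the strains moved reads between these genes was not tested. The summed Lce1 level was 1910, 2235 and 1734 CPM in C57BL/6 and 4303, 2971 and 3382 CPM in BALB/c, with no overlap.

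Markers of suprabasal keratinocytes, the cells that make these proteins, overlapped between the strains: 6 genes (Krt1, Krt10, Krt2, Krtdap, Sbsn, Dsg1a) summed to 8205 to 13352 CPM in C57BL/6 and 12943 to 14822 CPM in BALB/c. Lce1 reads divided by this sum were 0.167 to 0.211 in C57BL/6 and 0.223 to 0.332 in BALB/c, which did not overlap, by a narrow margin. Whether the content of suprabasal cells had a part in the Lce1 difference was not tested. The one suprabasal marker called was Krt2, the keratin of the upper epidermis, with 1.69, 0.895 and 1.67 CPM in C57BL/6 and 2.87, 75.8 and 56.6 CPM in BALB/c (log2 fold change 4.98, adjusted p = 0.0433). BALB/c replicate 1 lay near the C57BL/6 libraries for Krt2, although it was the highest BALB/c library for Lce1e, Lce1d and Lce6a.

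Sprr1b, an envelope precursor of keratinocytes under stress, was the only called member of the Sprr family in this comparison, at 0.615, 0.746 and 0.186 CPM in C57BL/6 and 3.03, 4.32 and 3.73 CPM in BALB/c. Both groups were low, and they did not overlap. The log2 fold change was 2.74 ± 0.436 (adjusted p = 0.0105). Its neighbour Sprr1a did not pass the test, at 64.1, 72.9 and 21.0 CPM in C57BL/6 against 18.5, 25.8 and 27.1 CPM in BALB/c (log2 fold change -1.15 ± 0.445, adjusted p = 0.201). C57BL/6 replicate 3 lay among the BALB/c libraries there.

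The S100-fused genes lay on both sides of 0 in this comparison, with a median log2 fold change of -0.21, and none passed the test. Hrnr was at 163, 185 and 77.4 CPM in C57BL/6 and 512, 502 and 506 CPM in BALB/c (log2 fold change 1.84 ± 0.541, adjusted p = 0.11), Flg2 at 806, 940 and 374 against 1427, 1453 and 1582 CPM (adjusted p = 0.313), and Flg at 223, 191 and 99.2 against 510, 356 and 356 CPM (adjusted p = 0.271). None of the 3 overlapped between the groups, and BALB/c was higher. The other 3 had negative estimates: Crnn was at 10.5, 1.79 and 0.186 CPM in C57BL/6 and 0.478, 0 and 0.162 CPM in BALB/c (log2 fold change -4.16, adjusted p = 0.169), Tchhl1 at 12.9, 4.92 and 1.11 against 0.796, 0.665 and 0.811 CPM (-3.05, adjusted p = 0.125), and Rptn at 11.99, 17.2 and 0.186 against 3.18, 2.66 and 4.70 CPM (-1.50, adjusted p = 0.398). C57BL/6 replicate 3 was the lowest of its group for all 6 S100-fused genes and for 24 of the 46 members, against 34.1% of all tested genes. Of Hrnr reads only 0.221% in C57BL/6 and 0.353% in BALB/c were unique, and of Rptn reads 0.515% and 3.08%. Values of Hrnr and Rptn are therefore uncertain.

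Prr9 and S100a3 had negative estimates as well. Prr9 was at 39.7, 22.7 and 1.86 CPM in C57BL/6 and 4.14, 3.66 and 4.70 CPM in BALB/c (log2 fold change -2.36, adjusted p = 0.179), and S100a3 at 10.6, 3.43 and 1.67 against 1.59, 1.16 and 0.649 CPM (-2.20, adjusted p = 0.23). C57BL/6 replicate 1 was the highest library for both, as for Crnn and Tchhl1. Of Prr9 reads 6.43% in C57BL/6 and 0% in BALB/c were unique, and of S100a3 reads 32.7% and 47.6%, so values of both are uncertain. The 8 hair shaft markers had a median log2 fold change of -4.13 and the 7 inner root sheath markers of -4.88, with 0 called. Their sums were 86.5, 37.7 and 6.50 CPM against 8.76, 2.66 and 7.62 CPM, and 638, 117 and 4.64 CPM against 17.5, 4.82 and 5.03 CPM. The part of hair follicle RNA in these estimates was not tested.

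Lor did not overlap between the strains, by a narrow margin, at 3235, 3306 and 1970 CPM against 3764, 3363 and 4091 CPM (log2 fold change 0.40 ± 0.467, adjusted p = 0.691). Ivl was at 40.5 to 98.6 and 62.9 to 72.9 CPM. Of the 12 tested S100a genes none was called, and their median log2 fold change was -0.02.

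Lce1e and Sprr1b passed the test under every alternative tried. For the other 3 called members the estimates stayed close, at 3.03 to 3.50 on the log2 scale for Lce1g, 1.80 to 2.10 for Lce1d and 2.03 to 2.48 for Lce6a, while the adjusted p crossed the threshold in some. Lce1g lost its call when C57BL/6 replicate 1 or 2 was left out (adjusted p up to 0.0592), Lce1d without any 1 of the 6 C57BL/6 and BALB/c libraries (up to 0.121), and Lce6a without any 1 of these or IL-6 KO replicate 3 (up to 0.11). Lce1d and Lce6a also lost it with the replicate number as a block. The count of members higher in BALB/c was 2 without C57BL/6 replicate 1 or 2, 3 without C57BL/6 replicate 3 or any 1 BALB/c library, 8 without IL-6 KO replicate 1, 14 without IL-6 KO replicate 2, and 15 of 37 tested members when only the 6 libraries compared were fitted.

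**Figure D2:**
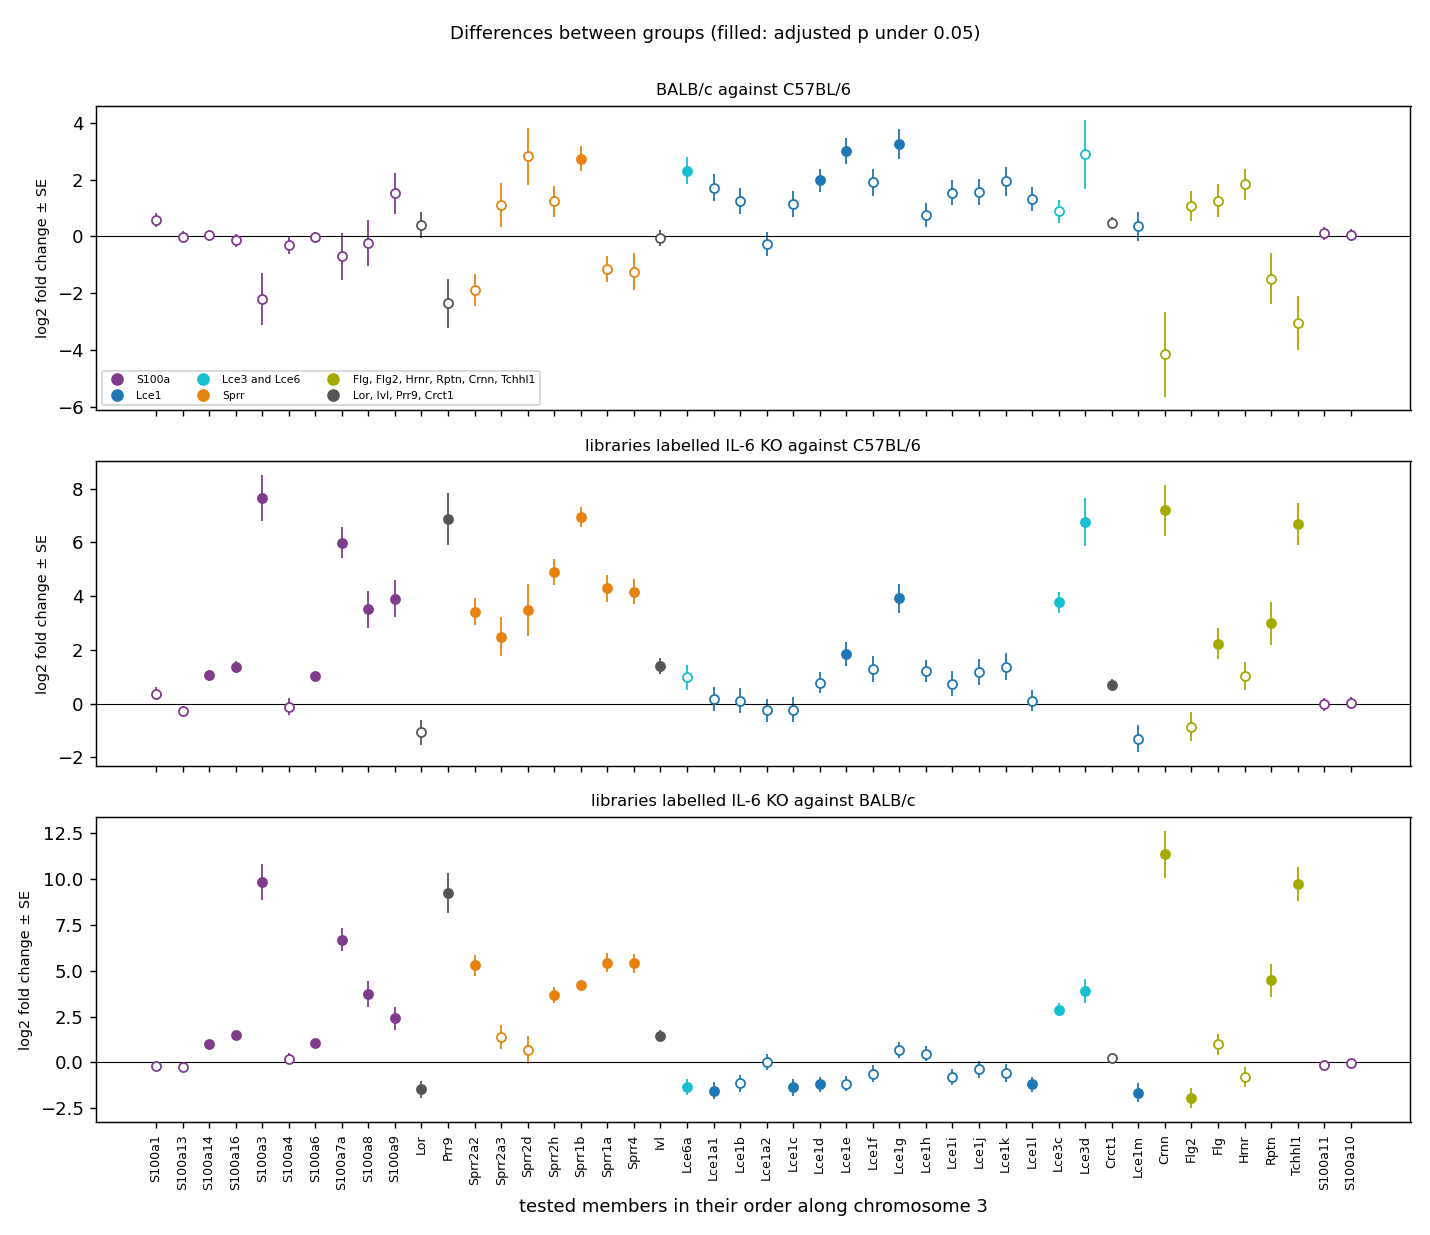
Log2 fold change with its SE for the 46 tested members in chromosomal order, one panel for each comparison, with filled points for an adjusted p under 0.05 and colours for gene families. In BALB/c against C57BL/6 the Lce1 genes lie mostly above 0 with 3 filled points, and in the IL-6 KO-labelled libraries against C57BL/6 the 7 tested Sprr genes are filled and above 0.

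The second comparison set the IL-6 KO-labelled libraries against C57BL/6, which have the same strain label. Here 25 of 46 tested members were higher and 0 lower, where 19.2% of all tested genes were called higher and 16% lower. At an unadjusted p under 0.05, 29 were higher and 2 lower (Lor and Lce1m), and DESeq2 called 29 higher and the same 2 lower. The median log2 fold change was 1.33 over the members and 0.01 over all genes. Without overlap 24 members were higher and 0 lower, against 24.6% and 23% of all genes. By family, 7 of 7 tested Sprr genes, 7 of 12 S100a genes, 4 of 6 S100-fused genes, 3 of 4 others, 2 of 3 Lce3 or Lce6 genes and 2 of 14 Lce1 genes were higher. The minimum of reads decided which genes were tested, and genes as low in C57BL/6 as Sprr4 and Lce3d met it only through the group where they are high, so these shares support nothing about a family. With no minimum, 34 of the 60 members with reads were called higher and 0 lower, among them 11 of 16 Sprr, 6 of 7 Lce3 or Lce6 and 3 of 14 Lce1 genes.

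Sprr1b was at 0.186 to 0.746 CPM in C57BL/6 and at 57.7, 91.6 and 55.0 CPM in the IL-6 KO-labelled libraries, a log2 fold change of 6.94 ± 0.369 (adjusted p = 1.12e-04). Sprr1a was at 64.1, 72.9 and 21.0 CPM against 1365, 615 and 1102 CPM, a log2 fold change of 4.28 ± 0.488 (adjusted p = 5.22e-04). No library of one group reached the range of the other for these 2 genes, although IL-6 KO replicate 2 was the highest for Sprr1b and the lowest for Sprr1a. Ivl, the early envelope scaffold, was at 70.3, 98.6 and 40.5 CPM against 237, 148 and 172 CPM, a log2 fold change of 1.41 ± 0.294 (adjusted p = 0.0059). Lor, the main late envelope protein, was at 3235, 3306 and 1970 CPM against 662, 2553 and 830 CPM, and did not pass (log2 fold change -1.07 ± 0.472, adjusted p = 0.105). For Lor, IL-6 KO replicates 1 and 3 lay below every C57BL/6 library and replicate 2 lay among them.

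The other 5 tested Sprr genes were called higher too. Sprr2h (0.922 to 1.79 against 23.0 to 62.9 CPM), Sprr4 (0.371 to 1.49 against 12.4 to 25.0 CPM) and Sprr2a2 (8.91 to 28.4 against 85.7 to 275 CPM) had log2 fold changes of 4.90, 4.17 and 3.42. Sprr2d (0 to 0.743 against 1.32 to 7.33 CPM) and Sprr2a3 (0.186 to 1.38 against 1.85 to 7.74 CPM) had 3.48 and 2.48, from 105 and 110 reads over all libraries. Several members had too few reads for the test. Sprr2a1 had 0 reads in C57BL/6 and 35 in the IL-6 KO-labelled libraries (0, 29 and 6 in replicates 1, 2 and 3). That is at least 16.2-fold higher when 3 reads are set over the C57BL/6 group, but IL-6 KO replicate 1 had no read either. Sprr2g had 2 and 31 reads (5, 22 and 4 by IL-6 KO replicate), a ratio of 21.5 (exact 95% counting interval 5.47 to 185). Sprr2e had 1 and 14 (1, 10 and 3), a ratio of 19.4 (2.96 to 821). In BALB/c, Sprr2g had 21 reads, a ratio of 10.6 to C57BL/6 (2.59 to 93.0), Sprr2e 9 and Sprr2a1 0. For Sprr2g and Sprr2e the IL-6 KO-labelled and BALB/c libraries overlapped. These intervals and bounds cover counting error only. Sprr2a1, Sprr2a2 and Sprr2a3 are near-identical copies, only 0.106% of Sprr2a2 reads were unique, and their separate values are uncertain.

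Krt6a, Krt6b, Krt16 and Krt17 are keratins of wounded or stressed epidermis that also occur in hair follicles. All 4 were higher (log2 fold changes 2.40, 6.78, 4.65 and 1.94), and their sum was 460, 749 and 448 CPM in C57BL/6 and 2885, 3085 and 2747 CPM in the IL-6 KO-labelled libraries. Within the label this sum was highest in replicate 2, where the summed Sprr level (1591, 1063 and 1377 CPM) was lowest. Sprr1a (1365, 615 and 1102 CPM) made up most of the Sprr sum. Of the 7 tested Sprr genes, 5 were highest in replicate 2 and 2 lowest, against 38.3% and 46.8% of all tested genes. Krt6a, Krt6b and Krt16 were highest there and Krt17 (1948, 1074 and 1465 CPM) lowest. Whether these keratins and the Sprr result are linked was not tested.

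Lce3 genes are known for their induction when the barrier is injured. Lce3c was at 0.922, 1.79 and 1.11 CPM in C57BL/6 against 24.9, 15.5 and 13.0 CPM (log2 fold change 3.76 ± 0.386, adjusted p = 4.58e-04). Lce3d, called too (adjusted p = 7.91e-04), had 1 read in C57BL/6 and 113 in the IL-6 KO-labelled libraries, a ratio of 157 (exact 95% counting interval 27.6 to 6246). Among the Lce3 genes under the read minimum, Lce3b had 0 and 24 reads (9, 7 and 8 by IL-6 KO replicate), at least 11.1-fold higher. Lce3a had 1 and 34 (17, 6 and 11), a ratio of 47.2 (7.91 to 1917). Lce3f had 1 and 45 (9, 31 and 5), a ratio of 62.4 (10.6 to 2520). In BALB/c, Lce3f had 23 reads, a ratio of 23.2 to C57BL/6 (3.76 to 954), and the BALB/c libraries overlapped the IL-6 KO-labelled ones. Lce3a had 3 reads and Lce3b 2 in BALB/c. All 6 Lce3 genes have a near-identical copy within the family, so reads may be split between them.

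In the Lce1 cluster, Lce1g was at 2.31, 3.28 and 4.64 CPM in C57BL/6 against 18.8, 87.3 and 46.5 CPM (log2 fold change 3.92 ± 0.531, adjusted p = 9.05e-04). Lce1e was at 13.2, 12.1 and 14.9 against 21.2, 84.1 and 38.8 CPM (log2 fold change 1.85 ± 0.439, adjusted p = 0.0104). Both were called in BALB/c as well, against the same C57BL/6 libraries. The other 12 Lce1 genes did not pass. Lce1m, the most abundant, was at 1055, 1293 and 858 CPM against 226, 875 and 196 CPM (adjusted p = 0.0742). The summed Lce1 level was 740, 2963 and 929 CPM in the IL-6 KO-labelled libraries, on both sides of the C57BL/6 range of 1734 to 2235.

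Prr9, S100a3, Crnn and Tchhl1 had the largest fitted fold changes besides Sprr1b and Lce3d. Prr9 was at 39.7, 22.7 and 1.86 CPM in C57BL/6 against 4206, 1067 and 2307 CPM (log2 fold change 6.87 ± 0.961, adjusted p = 0.00103). S100a3, a calcium-binding protein of the hair cuticle, was at 10.6, 3.43 and 1.67 CPM against 1613, 296 and 1300 CPM (7.65 ± 0.846, adjusted p = 4.99e-04). Crnn, cornulin, was at 10.5, 1.79 and 0.186 CPM against 975, 255 and 642 CPM (7.19 ± 0.955, adjusted p = 8.25e-04). Tchhl1, a relative of trichohyalin, was at 12.9, 4.92 and 1.11 CPM against 1086, 273 and 632 CPM (6.69 ± 0.777, adjusted p = 5.33e-04). All 4 had the same order of libraries within each group: replicate 1 highest and 3 lowest in C57BL/6, and replicate 1 highest and 2 lowest in the IL-6 KO-labelled libraries.

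The summed hair follicle markers had that order too, and so had each single marker except Krt32, at 9.84, 24.0 and 5.94 CPM in C57BL/6, and Krt82, with 0 CPM in replicates 2 and 3. The 7 inner root sheath markers summed to 638, 117 and 4.64 CPM in C57BL/6 and to 58516, 15110 and 40303 CPM in the IL-6 KO-labelled libraries, and the 8 hair shaft markers to 86.5, 37.7 and 6.50 CPM and to 13314, 2606 and 10159 CPM. All 7 and all 8 were called higher. The summed level of Prr9, S100a3, Crnn and Tchhl1 divided by that of the hair shaft markers was 0.851, 0.87 and 0.743 in C57BL/6 and 0.592, 0.726 and 0.48 in the IL-6 KO-labelled libraries, lower without overlap, whereas the genes themselves differed 103-fold (Tchhl1) to 201-fold (S100a3). Divided by the inner root sheath markers, the summed level of these 4 genes was 0.115, 0.28 and 1.04 in C57BL/6. In the IL-6 KO-labelled libraries it was 0.135, 0.125 and 0.121, which overlapped. The value of 1.04, in C57BL/6 replicate 3, rests on sums of 4.83 and 4.64 CPM. Whether hair follicle RNA had a part in these results was not tested. Only 6.37% of Prr9 reads and 36.3% of S100a3 reads were unique, and the annotated span of S100a3 covers that of S100a2, so that these values may hold reads of other loci.

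Among the S100-fused genes with epidermal roles, Flg was at 223, 191 and 99.2 CPM in C57BL/6 against 204, 1432 and 775 CPM, and was called higher although the groups overlapped (log2 fold change 2.23 ± 0.592, adjusted p = 0.0172). Rptn, repetin, was at 11.99, 17.2 and 0.186 CPM against 36.2, 132 and 67.1 CPM (2.98 ± 0.788, adjusted p = 0.0171), with 1.32% unique reads. Flg2 was at 806, 940 and 374 CPM against 178, 774 and 212 CPM (log2 fold change -0.86 ± 0.538, adjusted p = 0.236), and Hrnr at 163, 185 and 77.4 CPM against 104, 557 and 207 CPM (1.03 ± 0.531, adjusted p = 0.159). The ranges of Flg2 and Hrnr overlapped between groups, and 0.328% of Hrnr reads were unique.

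The calprotectin genes were low in C57BL/6 and higher in all 3 IL-6 KO-labelled libraries. S100a8 was at 0.308, 4.18 and 0.557 CPM in C57BL/6 and 14.5, 28.3 and 16.6 CPM (log2 fold change 3.50 ± 0.689, adjusted p = 0.00452). S100a9 was at 1.38, 1.64 and 0.371 CPM and 10.1, 33.4 and 9.55 CPM (3.91 ± 0.681, adjusted p = 0.00259). IL-6 KO replicate 2 was highest for both. Of 10 neutrophil markers, Ly6g, Elane and Ngp had 0 reads in the IL-6 KO-labelled libraries, Ly6g and Mpo in C57BL/6, and Ly6g and Ngp in BALB/c. The list summed to 3.13 to 6.92 CPM in C57BL/6 and 6.61 to 19.7 CPM in the IL-6 KO-labelled libraries, also highest in replicate 2. Cxcr2, a chemokine receptor and 1 of the 2 neutrophil markers tested, was called higher (0 to 0.298 against 1.70 to 5.09 CPM, adjusted p = 0.00309). The part of these cells in the calprotectin result was not tested.

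S100a7a, the mouse relative of psoriasin, was at 1.54, 2.39 and 0.743 CPM in C57BL/6 against 168, 41.5 and 101 CPM (log2 fold change 5.99 ± 0.587, adjusted p = 4.29e-04). S100a6, S100a14 and S100a16, of broad epithelial expression, had smaller fold changes with non-overlapping groups. S100a6 was at 274, 346 and 386 against 789, 613 and 668 CPM (1.04 ± 0.18, adjusted p = 0.00248), and S100a14 and S100a16 had log2 fold changes of 1.05 and 1.37. The remaining 5 tested S100a genes were not called: S100a10, partner of annexin A2, was at 161 to 192 against 143 to 251 CPM (log2 fold change 0.02, adjusted p = 0.952), and S100a11 at 256 to 298 against 192 to 379 CPM (-0.03, adjusted p = 0.929). The sign of the S100a11 estimate turned with scaling by library size alone, that of S100a10 without the filter and with the replicate number as a block, and both when some single libraries were left out. Crct1, a cysteine-rich gene beside Lce1m, was at 308, 348 and 228 CPM against 535, 487 and 420 CPM (0.70 ± 0.2, adjusted p = 0.0231).

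Of these 25 calls, 20 held under each alternative in which they were tested. Sprr2a2 and Rptn were not tested with unique exon reads, and 21 of the 25 had an adjusted p under all 17 alternatives. The call of Flg was lost without C57BL/6 replicate 3 (adjusted p up to 0.0712) and that of Rptn without C57BL/6 replicate 1 (0.0502). Crct1 lost its call when replicate 1 of either group or C57BL/6 replicate 3 was left out (up to 0.0812). Sprr2d lost its call when IL-6 KO replicate 2 or C57BL/6 replicate 1 or 2 was left out (up to 0.0717), and Sprr2a3 with replicate 2 or 3 of either group left out (up to 0.0892). Without C57BL/6 replicate 2, the estimate for S100a8 was 5.48, and without IL-6 KO replicate 2, that for Lce1e was 1.18. With the latter left out, 8 members were called lower: Lor, Flg2, Lce1m, Lce1a1, Lce1a2, Lce1b, Lce1c and Lce1l.

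**Figure D3:**
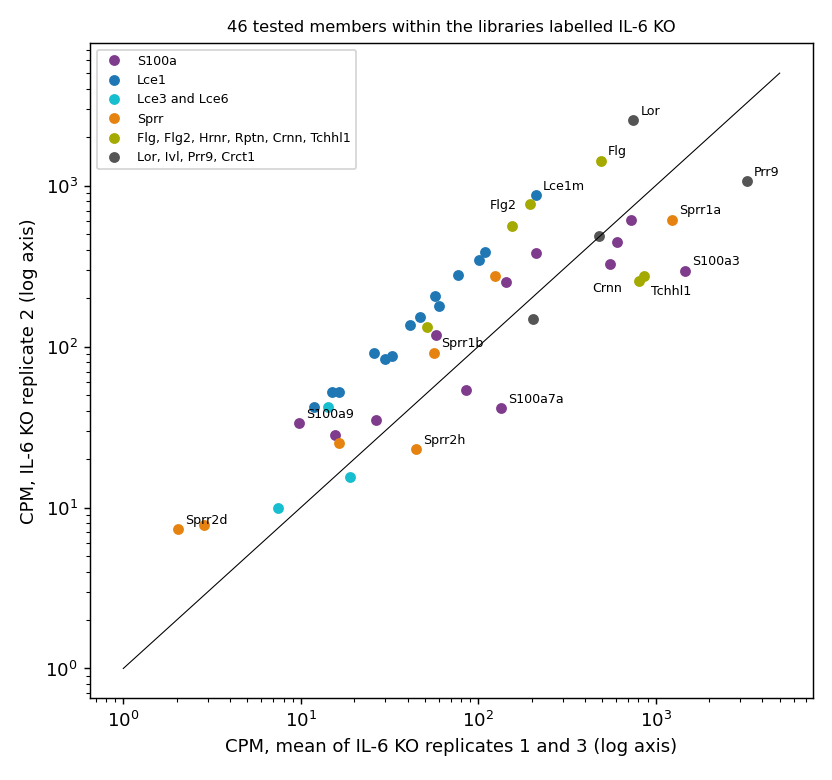
Level of the 46 tested members in IL-6 KO replicate 2 (vertical axis) against the mean of replicates 1 and 3 (horizontal axis), both in CPM on log axes, with the line of equality and colours for gene families. All 14 Lce1 genes, Lor and Flg2 lie above the line, and Prr9, S100a3, Crnn, Tchhl1 and S100a7a lie below it.

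IL-6 KO replicate 2 stood apart from the other libraries of its label in both directions. It was the highest of the 3 for 32 of 46 members and the lowest for 12, against 38.3% and 46.8% of all tested genes. All 14 Lce1 genes were highest there, at 2.68 to 4.15 times the mean of replicates 1 and 3, with Lor at 3.42 times and Flg2 at 3.96 times. S100a3 was at 0.203 times that mean, S100a7a at 0.309, Crnn at 0.316, Tchhl1 at 0.317, Prr9 at 0.328 and Sprr1a at 0.499. The suprabasal markers summed to 3587, 17076 and 5982 CPM in the 3 libraries, and the hair shaft markers to 13314, 2606 and 10159 CPM. Lce1 reads divided by the suprabasal sum were 0.206, 0.174 and 0.155 there and 0.181, 0.167 and 0.211 in C57BL/6, which overlapped. Lor, Flg2 and Lce1 together, divided by the same sum, were 0.441, 0.368 and 0.33 against 0.564, 0.485 and 0.497, lower without overlap. Whether the content of suprabasal cells had a part in the spread among these libraries was not tested.

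**Figure D4:**
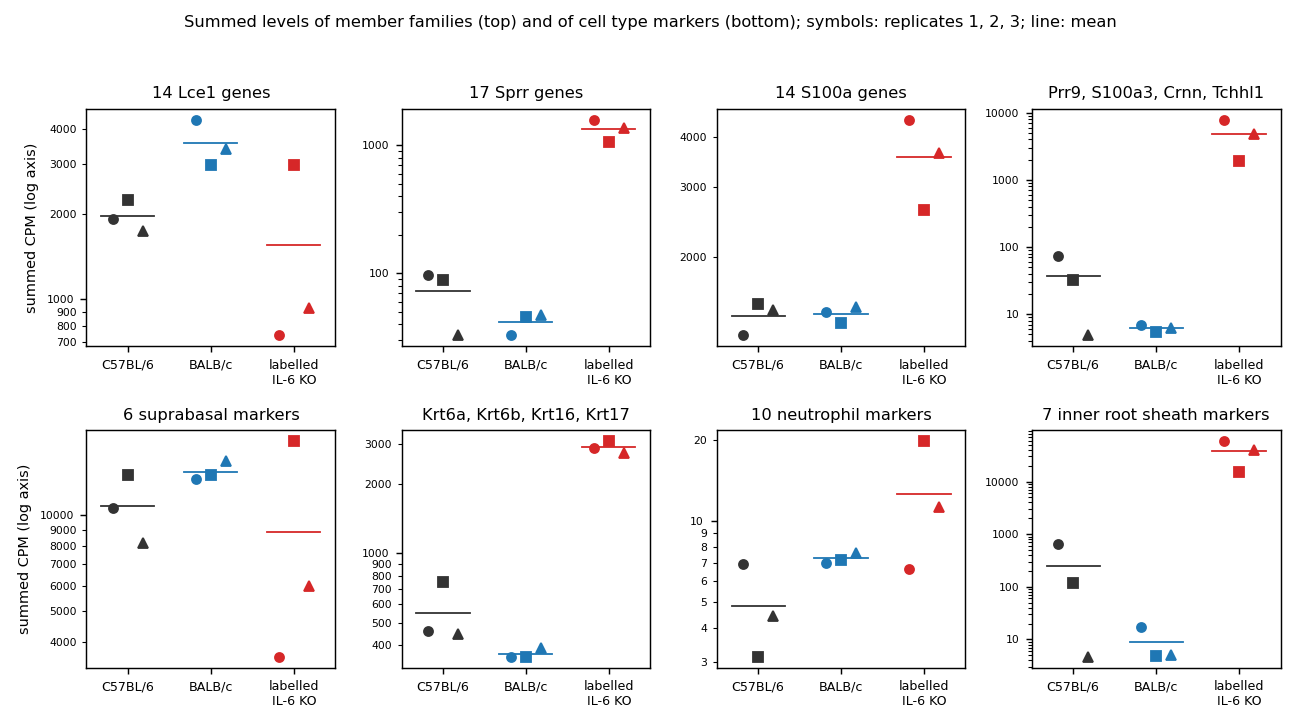
Summed CPM of 4 groups of members (top row) and of 4 lists of cell type markers (bottom row) in each library, on log axes whose range differs by panel, with symbols for replicates and a line at the group mean. Within the IL-6 KO-labelled libraries, Lce1 and the suprabasal markers are both highest in replicate 2. The sum of Prr9, S100a3, Crnn and Tchhl1 and that of the inner root sheath markers are both lowest there.

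The third comparison, of the IL-6 KO-labelled libraries with BALB/c, joins differences of strain and label that cannot be told apart, and uses libraries of both earlier comparisons. It gave 19 members higher and 8 lower of 46, where 19.9% of all tested genes were called higher and 17.4% lower. The median log2 fold change was 0.56 over the members and 0.01 over all genes, and 19 members were higher and 9 lower without overlap, against 26.7% and 24% of all genes. The lower members were Lor, Flg2, Lce6a and the Lce1 genes Lce1a1, Lce1c, Lce1d, Lce1l and Lce1m. Flg2 was at 178, 774 and 212 CPM against 1427, 1453 and 1582 CPM in BALB/c (log2 fold change -1.94 ± 0.553, adjusted p = 0.0224), and Lor at 662, 2553 and 830 CPM against 3764, 3363 and 4091 CPM (-1.47 ± 0.476, adjusted p = 0.0365). Lce1m was at 226, 875 and 196 CPM against 1577, 1132 and 1374 CPM (-1.65 ± 0.517, adjusted p = 0.032). No library of the label reached the BALB/c range for these 3 genes. None of the 8 calls held under all alternatives: the count of lower members was 0 without IL-6 KO replicate 1, IL-6 KO replicate 3 or BALB/c replicate 3, 1 without BALB/c replicate 1 or 2, 3 or 4 without 1 of the C57BL/6 libraries, and 18 without IL-6 KO replicate 2. With the last left out, the estimates of the 8 were further from 0, at -1.93 (Lce1d) to -2.93 (Flg2).

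Of the higher members, Sprr1b had a log2 fold change of 4.20 ± 0.288 (adjusted p = 5.58e-05), Sprr1a 5.43 ± 0.517 (adjusted p = 2.67e-04) and Sprr4 5.41 ± 0.524 (adjusted p = 2.71e-04). S100a3 was at 1.59, 1.16 and 0.649 CPM in BALB/c, a difference of 9.85 ± 0.966 (adjusted p = 2.87e-04). S100a8, at 1.11, 1.16 and 2.11 CPM in BALB/c, was higher by 3.74 ± 0.706 (adjusted p = 0.00365). S100a9, at 2.07, 2.49 and 5.51 CPM, was higher by 2.40 ± 0.602 (adjusted p = 0.0132), a call that was lost without BALB/c replicate 2 (0.0542) and an estimate that was 1.54 without IL-6 KO replicate 2. Lce1g and Lce1e, higher than C57BL/6 in both other groups, did not pass here: Lce1g was at 18.8 to 87.3 CPM against 28.4 to 37.6 (adjusted p = 0.247), and Lce1e at 21.2 to 84.1 against 87.1 to 144 CPM (0.051).

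Partners of the members outside the complex were read from 3 lists, whose counts stand beside 1.63% of all tested genes higher and 1.78% lower in BALB/c against C57BL/6, 19.2% and 16% in the IL-6 KO-labelled libraries against C57BL/6, and 19.9% and 17.4% against BALB/c. Of 25 cornified envelope partners (keratins, desmosomal proteins, transglutaminases and proteases), 1 (Krt2) passed the test as higher in BALB/c and 0 as lower, with a median log2 fold change of 0.32. In the IL-6 KO-labelled libraries against C57BL/6, 9 were higher and 2 lower, with a median of 0.59. Tgm3 and Tgm1, transglutaminases that cross-link the members, were among the higher, at 13.7, 4.47 and 6.13 against 193, 43.2 and 159 CPM (log2 fold change 4.01, adjusted p = 0.00117) and at 39.4 to 76.95 against 124 to 188 CPM (1.45, adjusted p = 0.00252). Cnfn, cornifelin, and Calml3, a calmodulin-like protein, had log2 fold changes of 2.14 and 1.73. Sbsn, suprabasin, was lower (-1.25, adjusted p = 0.0497), as was the transglutaminase Tgm5 (-0.75, adjusted p = 0.0385). Against BALB/c, 7 partners were higher and 0 lower.

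Of 30 regulators of keratinocyte differentiation, 0 were called between the strains (median log2 fold change -0.04), and 15 were higher and 1 lower in the IL-6 KO-labelled libraries against C57BL/6 (median 0.49). Junb, an AP-1 subunit, was at 49.8 to 73.2 against 146 to 209 CPM (log2 fold change 1.57, adjusted p = 6.33e-04). Vdr, the vitamin D receptor, and Tfap2c, an AP-2 factor, had log2 fold changes of 1.77 and 0.89. The lower gene was Satb1, a chromatin organiser, at 48.3 to 55.3 against 5.73 to 20.2 CPM (-2.24, adjusted p = 0.00335). Against BALB/c, 16 were higher and 2 lower. Of 13 tested partners of S100 proteins, 0 were higher and 2 lower in BALB/c against C57BL/6 (Sorl1 and Myh9), 1 was higher (Anxa1, log2 fold change 0.67) and 2 lower (Anxa6 and Anxa11, -1.23 and -0.82) in the IL-6 KO-labelled libraries against C57BL/6, and 3 were higher and 1 lower against BALB/c. The S100 partners called in the IL-6 KO-labelled libraries were thus about as many as, or fewer than, the shares of all genes give.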

How the data were processed

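The authors deposited a table of raw read counts per gene for each library, with RPKM beside them. Reads were mapped to GRCm38, per the submitters' processing notes, with an aligner not given in the sources used here. Within each library the deposited RPKM was proportional to total exon reads over exon length in 100% of genes checked. The library size behind it was larger than the total exon reads, at 7496897 against 6882193 in C57BL/6 replicate 1. RPKM was not used further. Total exon reads were analysed. Tables labelled IL-6 KO lack a biotype column that the others hold. Whether the authors' processing differed with the label cannot be told apart from the group. For C57BL/6 replicate 1 the first of 3 stacked tables was taken, since the others repeat replicates 2 and 3. All 9 libraries entered 1 model of 3 group means in edgeR 4.0.16 (R 4.3.3), which leaves 6 residual degrees of freedom. filterByExpr (minimum count 10, minimum total 15) left 14415 genes, TMM factors ran from 0.887 to 1.10, and the quasi-likelihood test was adjusted by Benjamini-Hochberg over all tested genes at 0.05. CPM uses TMM-scaled library sizes. Each SE was taken as the log2 fold change over the root of its F statistic. The test was tested on simulated data: of genes changed 2-fold it called 46.9% for BALB/c against C57BL/6 (14266 genes tested), 56.1% for IL-6 KO against C57BL/6 (14256) and 45.9% for IL-6 KO against BALB/c (14280), of genes changed 4-fold 94.8%, 91.8% and 92.8%, and 1.43%, 3.97% and 3.57% of calls were false. Each simulated gene had the same mean in all groups apart from the set change, and a spread that depended on its level alone. These rates may therefore not hold for the real libraries, where spread also differs between genes of like level. Replicates differed by more than counting error (chi-square per degree of freedom 4.36 to 47.2), so none was taken for a resequencing of another. The closest pairs were BALB/c replicates 2 and 3 (4.36) and IL-6 KO replicates 1 and 3 (6.57), and the other pairs were at 22.9 to 47.2. These values cannot tell whether libraries of a group came from the same mouse or the same RNA.

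A fold against 0 reads in a group was set against 3 reads over that group. Near-identical copies were transcripts aligned by blastn 2.17.0 at 95% identity or more, covering 200 bases or more and 40% or more of the shorter one, and 11 members have one. Whether reads were counted by strand is not given in the sources used here. Named were 15 members whatever their result (Flg, Flg2, Hrnr, Lor, Ivl, Crnn, Rptn, Sprr1a, Sprr1b, S100a8, S100a9, S100a3, S100a6, S100a10, S100a11), up to 6 called members per family and direction, and up to 4 genes per list by p-value, of which 1 is not reported here. Other members are named by level, read count or position. The members and lists were chosen with earlier results of these data known. Alternatives were RLE scaling, library size alone, no filter, a robust variance model, the replicate number as a block, only the 6 libraries compared, DESeq2 1.42.0, unique exon reads, and each library left out in turn.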

Additional observations from a re-analysis of the deposited data

How the results depend on the processing

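Of 1350 alternative values for 80 single-gene results, 1226 kept direction and side of the threshold, 94 were no longer called, 11 became called and 19 changed sign. For members higher in BALB/c than in C57BL/6 (5), other counts were 3 with the replicate block, 15 with only the 6 libraries compared, 12 with DESeq2 and 2 to 14 with 1 library left out; for members lower (0), 2 with DESeq2 and 0 to 1 with 1 library left out. The median log2 fold change (0.66) was 0.73 with library size alone, 0.82 without the filter, 0.79 with unique exon reads, 0.89 with only the 6 libraries compared and 0.54 to 0.93 with 1 library left out. For the IL-6 KO-labelled libraries against C57BL/6, the median (1.33) was 2.15 without the filter, and members lower (0) numbered 1 with the replicate block, 2 with DESeq2 and 0 to 8 with 1 library left out. Against BALB/c, members lower (8) numbered 3 with library size alone, 1 with only the 6 libraries compared and 0 to 18 with 1 library left out.

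Sign changes were all in genes that did not pass the test. For BALB/c against C57BL/6, S100a6 (-0.04) was at 0.0323 with library size alone and -0.15 to 0.075 with 1 library left out, S100a8 (-0.24) at 0.0614 with the replicate block and -0.73 to 1.74, and Ivl (-0.06) at -0.33 to 0.27. In the IL-6 KO-labelled libraries against C57BL/6, S100a11 (-0.03) was at 0.118 with library size alone and -0.38 to 0.16 with 1 library left out, and S100a10 (0.02) at -0.0055 without the filter, -0.011 with the replicate block and -0.30 to 0.16. Against BALB/c, S100a11 (-0.14) was at -0.49 to 0.047, and S100a10 (-0.04) at 0.049 with library size alone and -0.36 to 0.10 with 1 library left out. The cause of these changes was not tested.

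Labels share replicate numbers across groups, but same-numbered libraries did not deviate together (correlations -0.21 to 0.06). These correlations run over all genes and cannot exclude a shared day or litter, so whether the numbers pair libraries is not known. With the replicate block, 3 members were higher in BALB/c than in C57BL/6 (median 0.67), 25 were higher and 1 lower in the IL-6 KO-labelled libraries against C57BL/6 (median 1.19), and 19 were higher and 7 lower against BALB/c (median 0.39). Scaling by library size alone moved the median of all genes to 0.06, 0.15 and 0.08 in the 3 comparisons, and the share of called genes that were higher from 47.9% to 58.8%, from 54.6% to 67.8% and from 53.4% to 60.9%. The 14 members with reads under the minimum and the 3 without reads were not tested.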
